A study of Mus musculus with 6 samples.

Results

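The mitochondrial ribosomal protein genes were examined in the quadriceps of AR97Q mice, as the 78 genes on the array whose symbols begin with Mrpl or Mrps followed by a digit. The 49 Mrpl genes carry the name of the large subunit and were measured by 63 probes, and the 29 Mrps genes carry the name of the small subunit and were measured by 44 probes. The array held 56605 probes in all, for 44931 genes and unnamed transcripts. Membership came from the transcript identifier of each probe, looked up in the RefSeq list of mouse genes. The gene family itself was chosen with earlier results of these data known, so no set test was run.

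Total RNA was taken from the quadriceps of 6 male mice at 9 weeks of age, 3 in the exercise group (Exercise 1 to 3) and 3 in the sedentary group (Sedentary 1 to 3), with 1 array for each mouse. AR97Q mice are a model of spinal and bulbar muscular atrophy and carry a human androgen receptor transgene with an expanded CAG repeat on a C57BL/6J background; all 6 mice carried it, and wild-type muscle was not analysed here. The exercise group ran on a forced running wheel in the weeks before sampling, and the sedentary group did not. The promoter that drives the transgene is not given in the sources used here.

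Mitochondria keep a small genome of their own, and the few proteins it encodes, all of them subunits of the respiratory chain or ATP synthase, are made by the mitochondrial ribosome. That ribosome has a large subunit, which joins amino acids, and a small subunit, which binds the mRNA. Its RNA comes from the mitochondrial genome, whereas all of its proteins are encoded in the nucleus, made in the cytosol and imported. Some of these proteins have counterparts in bacterial ribosomes, and others were gained in the mitochondrial lineage. In skeletal muscle the content of mitochondria differs with fibre type and with use.

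Array signals differed between the groups before any scaling. The 75th percentile of the linear signal was 257, 256 and 251 on the exercise arrays and 310, 370 and 384 on the sedentary arrays, 54.6 to 59.9% of probes gave a signal well above background, and saturation was seen on no spot. Each log2 signal below is therefore given relative to the 75th percentile of its own array, and fold changes are differences of these log2 signals, exercise minus sedentary. Each array was assigned to a strip from the mean position of its spots in the scan, not from a label. By this, Sedentary 1 lay in the strip of the exercise arrays while Sedentary 2 and Sedentary 3 lay in the other. Whether the strips were handled as separate batches is not given in the sources used here. Of the skeletal muscle markers, 8 of 8 had a positive fold change (median 0.88), and 6 passed the test below as higher, beside 11.5% of everything tested. Their mean log2 level was 8.28 to 8.47 in the exercise group and 7.28 to 7.77 in the sedentary group. The list includes Actn3, which the paper counts among genes specific to fast-twitch muscle. The paper also reports more fast-twitch fibres in the exercise group.

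Mitochondrial ribosomal protein transcripts were higher in the exercise group under this scaling, although the median fold change of both subunits was below 0 without scaling, at -0.092 for Mrpl and -0.11 for Mrps, and with scaling on spike-in probes. Of the 49 Mrpl genes, 48 had a positive log2 fold change, and of the 29 Mrps genes all 29 had one, against 52.9% of the 25005 genes and transcripts tested. The median log2 fold change was 0.38 for Mrpl (range -0.0020 to 0.80) and 0.36 for Mrps (range 0.11 to 0.71), beside 0.026 over everything tested. On a linear scale these medians were 1.30-fold and 1.28-fold. In muscle RNA as a whole, fewer cells of a type and less RNA per cell cannot be told apart.

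In the limma test (adjusted p under 0.05 over all genes and transcripts tested), 30 of the 49 Mrpl genes and 19 of the 29 Mrps genes were higher in the exercise group, and 0 of either were lower. Over everything tested, 11.5% passed as higher and 6.12% as lower. At an unadjusted p under 0.05, 43 Mrpl and 25 Mrps genes passed, beside 36.99% of everything tested. No member reached the threshold of the study's methods, which adds a minimum of 1 on the absolute log2 fold change and was met by 2.78% of all genes and transcripts. The standard errors (SE) of the members ran from 0.074 to 0.13. The adjusted p of the members started at 0.0234; Mrps30 was just inside the threshold (adjusted p = 0.0488), and Mrpl47 and Mrps17 were just outside it (adjusted p = 0.05004 and 0.0542). Without Exercise 1, 2 or 3, Sedentary 2 or Sedentary 3, each left out alone, 0 members passed in limma (33 to 41 Mrpl and 20 to 23 Mrps genes at an unadjusted p under 0.05, beside 26.95 to 33.19% of everything tested). In those fits 0 of everything tested passed as higher. Without Sedentary 1, 28 and 18 passed as higher, beside 14.5% of everything tested.

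**Figure D1:**
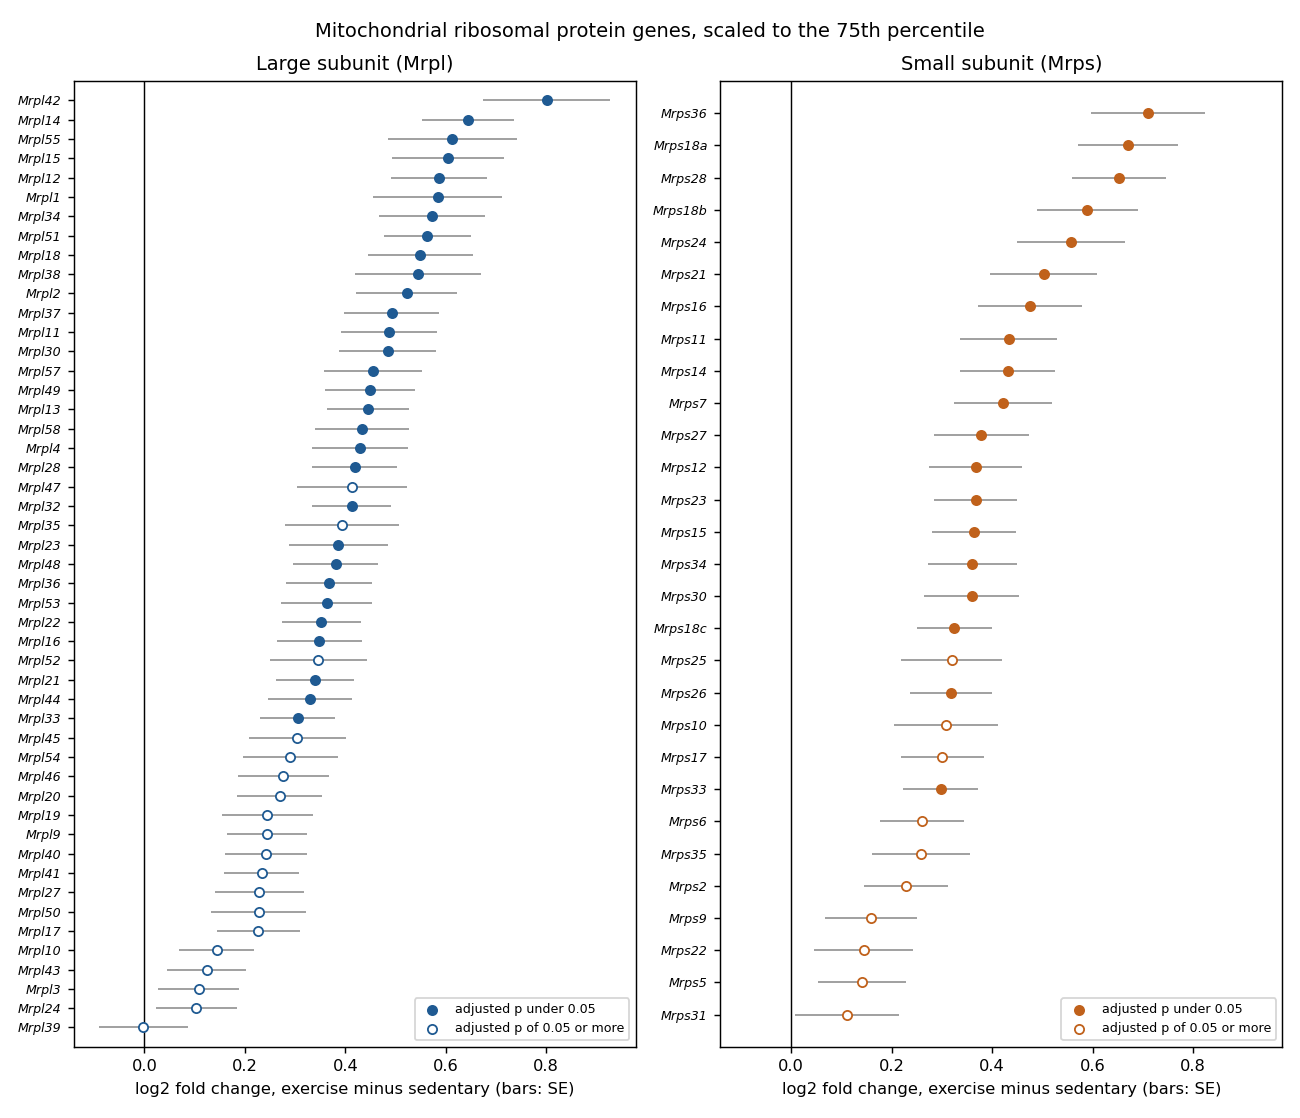
Log2 fold change (exercise minus sedentary, horizontal axis) of each Mrpl gene (left) and each Mrps gene (right) at 75th percentile scaling, with bars for the standard error; filled points had a limma adjusted p under 0.05. All points except Mrpl39 lie above 0 here, with the highest at 0.80 (Mrpl42), whereas without scaling between arrays the medians were -0.092 (Mrpl) and -0.11 (Mrps).

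The mice of the groups were also apart one by one. Each exercise array lay above each sedentary array for 48 of 49 Mrpl genes and 27 of 29 Mrps genes, beside 25% of everything tested. The exceptions were Mrpl39, Mrps22 and Mrps31. Taking each gene relative to its own mean over the 6 arrays, the median Mrpl gene stood at 0.24, 0.19 and 0.13 in Exercise 1, 2 and 3 and at -0.13, -0.19 and -0.23 in Sedentary 1, 2 and 3. The median Mrps gene stood at 0.23, 0.20 and 0.13 and at -0.10, -0.18 and -0.26 on the same arrays. The arrays thus took the same order in both subunits, with Exercise 1 highest and Sedentary 3 lowest. The spread of the array medians within a group was small beside the gap (Mrpl 0.189 ± 0.056 against -0.184 ± 0.047, Mrps 0.187 ± 0.050 against -0.181 ± 0.079, mean ± SD, n = 3 mice each). Without scaling the median Mrpl gene stood at 0.021, -0.038 and -0.126 in Exercise 1, 2 and 3. It stood at -0.085, 0.115 and 0.127 in Sedentary 1, 2 and 3, so that Sedentary 1 lay among the exercise arrays.

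Sedentary 1, the array in the strip of the exercise arrays, was the nearest of the sedentary arrays to the exercise group. For 30 of 49 Mrpl and 18 of 29 Mrps genes the groups did not overlap and Sedentary 1 was the one closest to the exercise arrays, beside 27.3% of everything tested. Among genes whose groups did not overlap, these were 30 of 48 Mrpl and 18 of 27 Mrps genes. Over everything tested they were 6834 of 10806, a like share, so this place of Sedentary 1 was not particular to the members. Against Sedentary 1 alone the exercise mean was higher for 49 of 49 Mrpl genes (median difference 0.33) and 29 of 29 Mrps genes (median 0.29). Against the mean of Sedentary 2 and Sedentary 3 the medians were 0.41 and 0.40. With the strip as a block, a limma fit in which only Sedentary 1 tells group and strip apart, 0 members passed. In that fit 0 of everything tested passed as higher and 3 as lower. At an unadjusted p under 0.05 there were 29 Mrpl and 15 Mrps genes, beside 19.3% of everything tested.

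**Figure D2:**
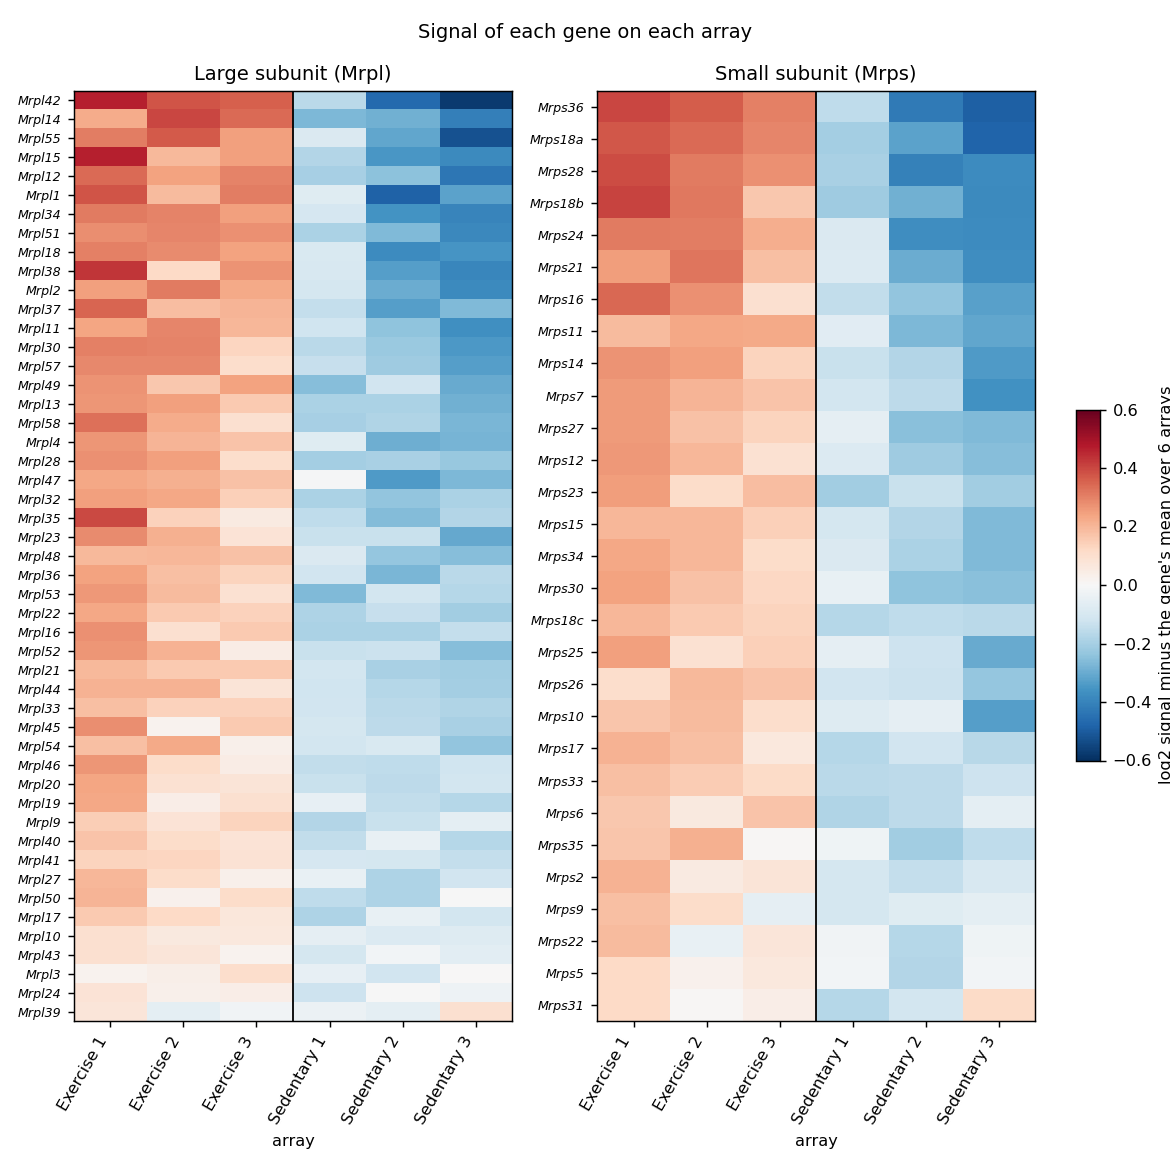
Log2 signal of each Mrpl gene (left) and Mrps gene (right) on each of the 6 arrays, at 75th percentile scaling and minus the mean of that gene over the 6 arrays (colour scale from -0.6 to 0.6); genes are ordered by fold change and a line parts the groups. For 75 of 78 genes each exercise column is above each sedentary column; without scaling the medians of both subunits were lower in the exercise group (-0.092 and -0.11).

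Among large subunit genes, Mrpl42 had the highest fold change. It encodes a protein of the large subunit with no bacterial counterpart. Its log2 signal was 6.80, 6.71 and 6.69 on the exercise arrays and 6.17, 5.87 and 5.76 on the sedentary arrays. Every exercise array was above every sedentary one, and Sedentary 1 was the highest of its group. The log2 fold change was 0.80 (SE 0.13 by limma, adjusted p = 0.0234), or 1.74-fold. By the same test it was 0.33 without scaling (adjusted p = 0.0462) and 0.26 with spike-in scaling, where it did not pass (adjusted p = 0.240).

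Other large subunit genes high in the order belong to named parts of the ribosome. Mrpl14, a protein of the face that meets the small subunit, had log2 signals of 6.63, 6.81 and 6.75 in the exercise group and 6.14, 6.12 and 5.998 in the sedentary group. Its groups lay well apart, with a log2 fold change of 0.64 (SE 0.091, adjusted p = 0.0234). Mrpl12, the stalk protein that meets the translation factors, had log2 signals of 5.64, 5.54 and 5.59 against 5.10, 5.05 and 4.86, with a log2 fold change of 0.59 (SE 0.096, adjusted p = 0.0236). Mrpl1, of the stalk on the other side where the spent tRNA leaves, had 3.42, 3.23 and 3.35 against 2.97, 2.56 and 2.72 and a log2 fold change of 0.58 (SE 0.13, adjusted p = 0.0333). Of these 3 genes, Mrpl1 was the most scattered within the sedentary group.

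Mrpl15 and Mrpl34 both have bacterial counterparts. Mrpl15 had log2 signals of 4.52, 4.25 and 4.30 in the exercise group and 3.88, 3.70 and 3.67 in the sedentary group (log2 fold change 0.60, adjusted p = 0.0253). Mrpl34, a short basic protein, had 4.47, 4.46 and 4.41 against 4.06, 3.80 and 3.76 (log2 fold change 0.57, adjusted p = 0.0253). For both genes the groups were clear of each other, and the lowest exercise array was above the highest sedentary one. Mrpl55 had 6.45, 6.51 and 6.39 against 6.06, 5.83 and 5.62 (log2 fold change 0.61, adjusted p = 0.0305).

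Mrpl33, a small protein of the large subunit in bacteria and mitochondria alike, had a smaller fold change with little scatter. Its log2 signal was 7.21, 7.17 and 7.17 in the exercise group and 6.92, 6.87 and 6.85 in the sedentary group, so the replicates of a group lay within 0.1 of each other. Its log2 fold change was 0.30 (SE 0.076, adjusted p = 0.0427), but -0.027 with quantile normalization, -0.17 without scaling and -0.24 with spike-in scaling.

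At the other end of the order, Mrpl39, a large subunit protein related to threonyl-tRNA synthetase, had log2 signals of 3.39, 3.26 and 3.30 in the exercise group and 3.28, 3.26 and 3.41 in the sedentary group. The groups overlapped, and the log2 fold change was -0.0020 (SE 0.088, adjusted p = 0.989). Mrpl24 and Mrpl3, which in bacteria are among the proteins that start large subunit assembly, had log2 fold changes of 0.10 (adjusted p = 0.385) and 0.11 (adjusted p = 0.371).

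Of the genes named for the small subunit, Mrps36 had the highest fold change. Its protein was named as a ribosomal protein and is now known as a component of the 2-oxoglutarate dehydrogenase complex of the citric acid cycle. Its log2 signal was 5.59, 5.55 and 5.49 in the exercise group and 5.04, 4.76 and 4.70 in the sedentary group. The exercise arrays lay close together, and Sedentary 1 was again the highest of its group. The log2 fold change was 0.71 (SE 0.11, adjusted p = 0.0236), or 1.64-fold.

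Mrps18a and Mrps30 carry small subunit names, but their proteins sit in the large subunit. Mrps18a had log2 signals of 4.69, 4.66 and 4.61 against 4.11, 3.99 and 3.84 and a log2 fold change of 0.67 (SE 0.099, adjusted p = 0.0234). Mrps30 had 3.90, 3.83 and 3.78 against 3.61, 3.42 and 3.40 and a log2 fold change of 0.36 (SE 0.095, adjusted p = 0.0488), which was -0.11 without scaling and -0.18 with spike-in scaling.

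Proteins of the small subunit itself included Mrps28, with log2 signals of 5.87, 5.79 and 5.76 in the exercise group and 5.28, 5.08 and 5.10 in the sedentary group. The log2 fold change came to 0.65 (SE 0.094, adjusted p = 0.0234). Mrps18b, a relative of Mrps18a, had 5.16, 5.07 and 4.92 against 4.54, 4.47 and 4.37 and a log2 fold change of 0.59 (SE 0.10, adjusted p = 0.0239). For both genes each exercise array was above each sedentary one. Mrps24, near the path by which mRNA enters, had 4.48, 4.48 and 4.39 against 4.09, 3.80 and 3.80, with a log2 fold change of 0.56 (SE 0.11, adjusted p = 0.0270).

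The lowest of the Mrps genes did not pass the test. Mrps31 had log2 signals of 3.66, 3.55 and 3.58 in the exercise group and 3.37, 3.43 and 3.66 in the sedentary group, so that Sedentary 3 lay among the exercise arrays (log2 fold change 0.11, adjusted p = 0.472). Mrps22 had 3.07, 2.83 and 2.95 against 2.86, 2.71 and 2.86, groups that also overlapped, with a log2 fold change of 0.14 (adjusted p = 0.332). Mrps5, at the entry of the mRNA channel, gave a log2 fold change of 0.14 with groups that did not overlap (adjusted p = 0.289).

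Counterparts of bacterial ribosomal proteins and proteins without one were both represented among the genes that passed. In the large subunit, 20 of 30 genes with a bacterial counterpart passed as higher (median log2 fold change 0.40), as did 12 of 21 without one (median 0.36), the latter counted with Mrps18a and Mrps30. In the small subunit the counts were 9 of 15 (median 0.36) and 5 of 9 (median 0.32). Mrps18b, Mrps28 and Mrps36 were put in neither class here, and each passed as higher (log2 fold changes 0.59, 0.65 and 0.71). None was lower, and 11.5% of everything tested passed as higher. With quantile normalization the counts higher were 4 and 4 in the large subunit and 1 and 0 in the small (7.45% of everything tested), and in the deposited table they were 4 and 3, and 0 and 0 (4.69%). Without scaling, 0 with and 1 without a bacterial counterpart passed as higher in the large subunit, where 1 of the latter passed as lower, and none in the small. These medians fall below 0 without scaling, where they lay between -0.16 and -0.07, and the differences between the classes were not tested.

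Several probes for one gene gave fold changes of the same sign. For 24 genes more than 1 probe was measured, and in 24 of them all probes were higher in the exercise group at this scaling. The range among probes of a gene had a median of 0.066 and was widest for Mrps17, at 0.21, whose probes gave 0.30 and 0.51. All member probes were well above background on all 6 arrays except one of the probes for Mrps14, a dim one that was well above background on 5 and was not the one used for that gene.

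Most members were among the bright genes of the array. Of the Mrpl genes 40, and of the Mrps genes 23, lay in the brightest quintile of the genes tested by mean signal, and fold changes in that quintile were shifted: its median over all genes was 0.16, against -0.0098, -0.067, -0.040 and 0.011 in the dimmer quintiles from the lowest up. In the brightest quintile 24.6% of genes passed as higher, a background above the 11.5% for all. Of the members in it, 36 of 40 Mrpl and 21 of 23 Mrps genes exceeded its median, and 26 and 17 passed as higher. Across genes, mean signal and fold change had a Pearson r of 0.30 for Mrpl and 0.48 for Mrps, where the points share the same arrays and scaling. The part of signal in the result was not tested.

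**Figure D3:**
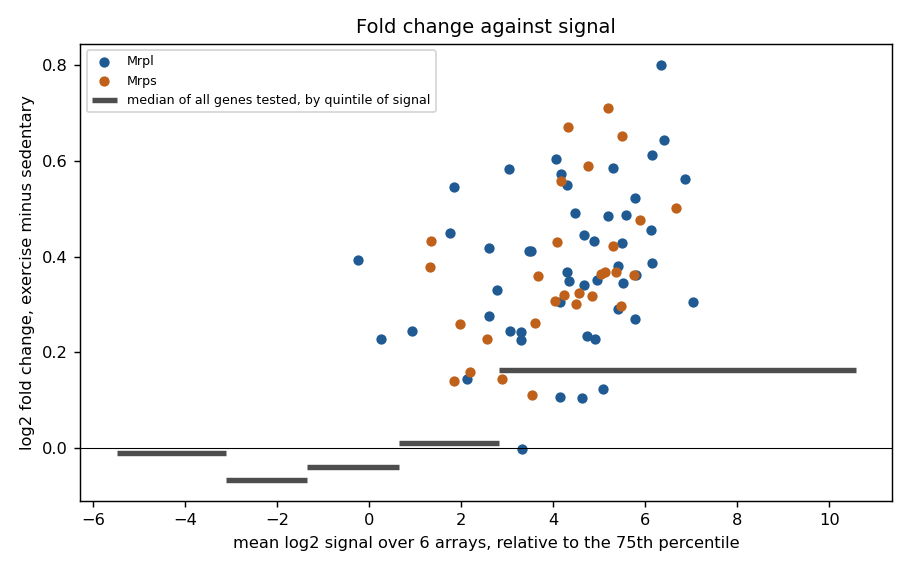
Log2 fold change (exercise minus sedentary, vertical axis) against mean log2 signal over the 6 arrays relative to the 75th percentile (horizontal axis), 1 point for each Mrpl gene (blue) and Mrps gene (orange), with bars for the median of all genes tested in each quintile of signal. In the brightest quintile the bar is at 0.16, and 36 of 40 Mrpl and 21 of 23 Mrps genes lie above it, at a scaling without which the members' medians were below 0.

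The scaling between arrays set how many members passed and, in part, the sign. With quantile normalization, 7 Mrpl and 4 Mrps genes passed as higher (7.45% of everything tested), with medians of 0.20 and 0.15. In the deposited table of values, which carries a scaling of its own, 6 and 4 passed (4.69% of everything tested), with medians of 0.22 and 0.20. Without scaling, Mrpl42 passed as higher, Mrpl39 as lower and no Mrps gene in limma (2 at an unadjusted p under 0.05), and 14 Mrpl and 7 Mrps genes had a positive fold change. The median over everything tested was itself -0.45 without scaling, -0.52 with scaling on 7 spike-in probes, -0.13 in the deposited table and 0.11 with the array median subtracted. Relative to that shift, 48 of 49 Mrpl and 29 of 29 Mrps genes lay above the median of everything tested in each of these settings, as they must where a scaling moves every gene of an array alike. With quantile normalization, which does not, 44 and 28 did.

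Higher under the 75th percentile, quantile normalization and the deposited table alike were 5 Mrpl genes, Mrpl12, Mrpl14, Mrpl15, Mrpl34 and Mrpl42, and 3 Mrps genes, Mrps18a, Mrps28 and Mrps36. Of these 3 Mrps genes only Mrps28 encodes a small subunit protein, given the places of Mrps18a and Mrps36 stated above. The 8 genes had limma adjusted p values between 0.0296 and 0.0496 with quantile normalization and in the deposited table. Under quantile normalization their log2 fold changes ran from 0.36 (Mrpl12) to 0.55 (Mrpl42). Without scaling between arrays Mrpl42 was the only one of them to pass, and with spike-in scaling none did.

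**Figure D4:**
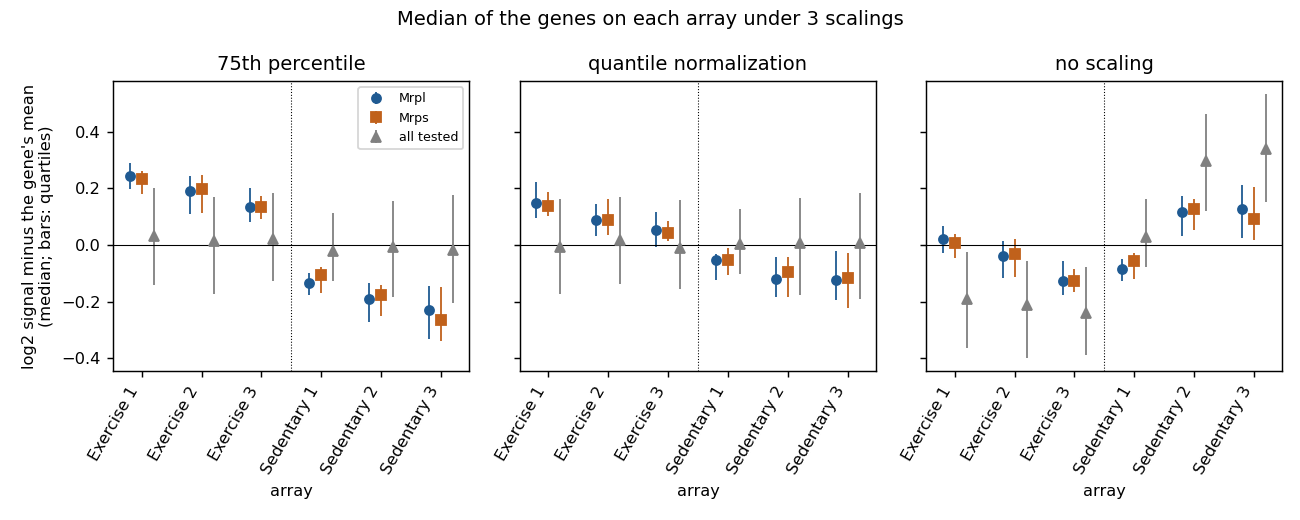
Median and quartiles (bars) of the Mrpl genes, the Mrps genes and all genes tested on each of the 6 arrays, as log2 signal minus the gene's mean over the arrays, at 75th percentile scaling (left), with quantile normalization (middle) and without scaling (right). Both subunits stand above all genes tested on every exercise array in all 3 panels, whereas their own sign between groups turns without scaling (medians -0.092 and -0.11).

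Regulatory sequence near the start of transcription was described for the 69 members with a RefSeq promoter window (GRCm38.p6, 250 bases before the start and 50 from it on), 43 Mrpl and 26 Mrps genes. Motifs of transcription factors known from nuclear genes of mitochondrial proteins were searched on both strands; no motif contains another. The NRF1 motif (GCGCA, any base, then GCGC) was in the windows of 23.3% of Mrpl and 11.5% of Mrps genes, and of 5.19% of 27025 genes with a window. The ETS or GABP motif CCGGAAGT was in 18.6 and 15.4%, against 4.31% of all, and the YY1 motif AAGATGGC in 14.0 and 23.1%, against 3.19%. The ERR motif TNAAGGTCA was in no member's window and in 1.43% of all, and the E-box CACGTG was in 9.3 and 3.85%, against 8.09%. At least one of the NRF1, ETS or YY1 motifs was present in 53.5% of Mrpl and 42.3% of Mrps genes, against 11.7% of all. Among members that passed the test and those that did not, the shares for these 3 motifs together were 53.5% (23 of 43) and 42.3% (11 of 26). Motif by motif, the NRF1 motif was in 18.6% of members that passed and 19.2% of those that did not, and the ETS motif in 16.3 and 19.2%. The YY1 motif was in 25.6% (11 of 43) and 3.85% (1 of 26), a difference described here without a test.

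Stretches of 5 windows are shown because each holds 1 match and the genes span the order of fold changes. They run from 150 bases before the start of transcription to 30 from it on, 5′ to 3′ on the strand of the gene, with motif matches in capitals. Mrpl14 (chr17:45686199-45686378, plus strand), Mrpl12 (chr11:120484487-120484666, plus strand) and Mrpl39 (chr16:84735215-84735394, minus strand) hold the NRF1 motif, Mrpl33 (chr5:31613801-31613980, plus strand) the ETS motif and Mrps18a (chr17:46110854-46111033, plus strand) the YY1 motif, whose letters include the triplet ATG.
Mrpl14: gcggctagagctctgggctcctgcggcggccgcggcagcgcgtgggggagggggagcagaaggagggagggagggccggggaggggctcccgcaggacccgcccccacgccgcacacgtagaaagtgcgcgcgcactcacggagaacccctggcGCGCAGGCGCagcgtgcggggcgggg
Mrpl12: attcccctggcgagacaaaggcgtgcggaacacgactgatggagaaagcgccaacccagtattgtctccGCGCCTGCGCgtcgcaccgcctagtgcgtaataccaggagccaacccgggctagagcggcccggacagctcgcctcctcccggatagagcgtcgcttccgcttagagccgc
Mrpl39: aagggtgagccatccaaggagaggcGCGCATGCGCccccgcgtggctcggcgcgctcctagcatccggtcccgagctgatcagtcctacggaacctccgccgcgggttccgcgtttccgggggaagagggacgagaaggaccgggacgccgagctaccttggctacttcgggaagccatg
Mrpl33: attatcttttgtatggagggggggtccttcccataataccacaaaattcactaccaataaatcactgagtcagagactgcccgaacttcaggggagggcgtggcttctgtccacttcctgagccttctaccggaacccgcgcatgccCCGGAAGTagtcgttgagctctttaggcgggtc
Mrps18a: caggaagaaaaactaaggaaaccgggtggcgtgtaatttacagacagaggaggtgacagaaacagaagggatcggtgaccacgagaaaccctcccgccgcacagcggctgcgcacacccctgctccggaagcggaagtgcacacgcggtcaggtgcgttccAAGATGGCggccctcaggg
Mrpl14 and Mrpl12, with log2 fold changes of 0.64 and 0.59, and Mrpl39, at -0.0020, thus all had a match to the NRF1 motif, that of Mrpl12 being on the opposite strand. A match describes these letters alone, and binding of the factors was not measured.

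Genes that work with the mitochondrial ribosome were counted as lists. The medians of these lists, positive at 75th percentile scaling, were all below 0 without scaling and with spike-in scaling. At 75th percentile scaling 11.5% of everything tested passed as higher, 6.12% as lower, and 52.9% had a positive fold change. Without scaling 0 genes of any of these 5 lists passed as higher, and those that passed as lower were 0 of the proteins under other names, 6 assembly factors, 3 translation factors, 7 synthetases and 6 genes of transcription and biogenesis. At that setting 2.47% of everything tested passed as higher, and 11280 of the 25005 genes and transcripts as lower. Of 5 mitochondrial ribosomal proteins under other names, 1 passed, Chchd1 of the small subunit (log2 fold change 0.57, adjusted p = 0.0234), with log2 signals of 7.24, 7.16 and 7.10 in the exercise group and 6.66, 6.52 and 6.60 in the sedentary group. The lowest of them, Aurkaip1, gave a log2 fold change of 0.12 (adjusted p = 0.376), and the median of the 5 was 0.17, or -0.0075 with quantile normalization and -0.30 without scaling.

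Of 24 assembly factors, 22 had a positive fold change and 5 passed as higher, with a median of 0.24 that was -0.23 without scaling. Over everything tested, 52.9% had a positive fold change and 11.5% passed as higher, and in the brightest quintile 24.6% passed as higher. Rpusd3, a pseudouridine synthase of mitochondrial RNA, had log2 signals of 2.74, 2.48 and 2.54 in the exercise group and 2.18, 1.95 and 1.73 in the sedentary group (log2 fold change 0.63, adjusted p = 0.0339). Dhx30, an RNA helicase, had 3.90, 3.91 and 3.95 against 4.11, 4.24 and 4.18 (log2 fold change -0.25, adjusted p = 0.0745). Its exercise arrays all lay below its sedentary arrays, the opposite of Rpusd3.

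Of 15 translation factors, 14 had a positive fold change and 3 passed as higher (median 0.21, and -0.27 without scaling). Beside these and the synthetases below, 52.9% of everything tested had a positive fold change, 11.5% passed as higher and 6.12% as lower. Tufm, the elongation factor that delivers aminoacyl-tRNA, had log2 signals of 5.10, 5.01 and 5.07 against 4.76, 4.59 and 4.50 (log2 fold change 0.44, adjusted p = 0.0339), which became -0.032 without scaling and -0.10 with spike-in scaling. Mtif2, an initiation factor, gave a log2 fold change of -0.13 (adjusted p = 0.317). Of 17 mitochondrial aminoacyl-tRNA synthetases, 12 had a positive fold change, 4 passed as higher and 1 as lower, with a median of 0.20 (-0.27 without scaling). Mars2, for methionine, gave a log2 fold change of 0.50 (adjusted p = 0.0412), -0.038 with spike-in scaling, and Hars2, for histidine, fell by 0.40 (adjusted p = 0.0432). Hars2 was lower at each scaling tried.

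Of 17 genes for mitochondrial transcription and biogenesis, 1 passed, Esrra, a nuclear receptor that acts on genes of mitochondrial proteins (log2 fold change 0.38, adjusted p = 0.0434); it lies outside the naming rule and was picked after its value was seen. Beside this 1 of 17, 11.5% of everything tested passed as higher. The median of the list was 0.086, or -0.39 without scaling and -0.072 in the deposited table. Ppargc1b, a coactivator, had the highest fold change of the list (0.45, adjusted p = 0.139) and Mterf1a, which acts on transcription of the mitochondrial genome, the lowest (-0.41, adjusted p = 0.149). Nrf1 itself gave a log2 fold change of -0.13 (adjusted p = 0.357), and is named, also after its value was seen, for the motif above. No probe matched a mitochondrially encoded gene, so the mRNAs that this ribosome translates were not measured here.

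Genes of other complexes give a measure of scale, beside 11.5% of everything tested that passed as higher and 52.9% with a positive fold change. Of 37 complex I subunits, 35 passed as higher and 0 as lower, with a median of 0.54 that was 0.19 with quantile normalization, 0.070 without scaling and 0.0016 with spike-in scaling. The number that passed as higher was 4 with quantile normalization, 19 in the deposited table, 2 without scaling and 0 with spike-in scaling, and 0 were lower in each. They ran from Ndufa1 (0.31, adjusted p = 0.0445, but -0.10 with quantile normalization, -0.17 without scaling and -0.24 with spike-in scaling) to Ndufs7 (0.81, adjusted p = 0.0235). Of 83 cytosolic ribosomal protein genes, 79 had a positive fold change and 3 passed as higher, with a median of 0.15 that turned to -0.19 with quantile normalization, -0.32 without scaling, -0.39 with spike-in scaling and -0.0039 in the deposited table. Among these 3 was Rpl37, whose probe was well above background on the exercise arrays but not on the sedentary ones. It was kept only through the arrays where it is high, so its test is no support. As a description, the signal of Rpl37 was put at 2.45-fold higher in the exercise group, at the scaling used for this test alone. That figure is not a lower limit. It depends on the scaling between arrays, and the sedentary signals of this probe were not well above background. Rpl3 gave a log2 fold change of -0.63 (adjusted p = 0.0584). Differences in fold change between the mitochondrial ribosomal proteins and these lists were not tested.

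**Figure D5:**
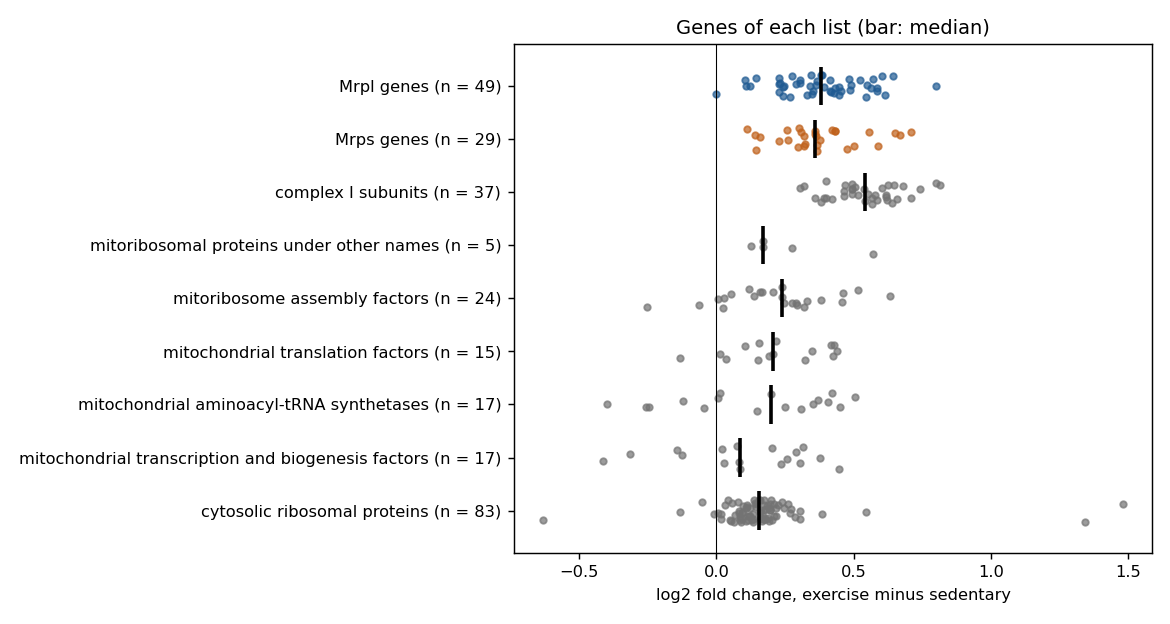
Log2 fold change (exercise minus sedentary, horizontal axis) of each gene of the listed groups at 75th percentile scaling, with bars for the medians. The Mrpl and Mrps medians (0.38 and 0.36) lie between those of complex I (0.54) and of the cytosolic ribosomal proteins (0.15), and without scaling the medians of all listed groups except complex I were below 0.

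Markers of the cell types in a muscle sample moved with the groups as well, in part. The skeletal muscle list was higher at each scaling tried (median 0.41 without scaling), with Ckm, the creatine kinase of muscle picked after its value was seen, at 8.85, 8.73 and 8.87 in the exercise group and 7.79, 7.28 and 6.90 in the sedentary group. Of 7 adipocyte markers 1 passed as higher and none as lower, with a median of -0.78 and mean levels of 3.02 to 4.46 on the exercise arrays against 4.03 to 4.38 on the sedentary arrays. Without scaling 0 of them passed as higher and 4 as lower (median -1.25), and with spike-in scaling 0 and 6 (median -1.32), settings at which 11280 and 10490 of the 25005 genes and transcripts passed as lower. Of 5 Schwann cell markers, 1 passed as lower (median -0.34), and mean levels, in the same order of groups here and below, were 0.474 to 0.783 against 0.954 to 1.23. All 5 passed as lower without scaling (median -0.81) and with spike-in scaling (median -0.88). None of 5 endothelial, 5 fibroblast and 7 macrophage markers passed, with medians of -0.020, -0.020 and -0.038 and mean levels of 1.20 to 1.56 against 1.19 to 1.42, 5.54 to 5.69 against 5.50 to 5.92, and 2.27 to 2.57 against 2.34 to 2.63. Without scaling their medians were -0.49, -0.49 and -0.51, and 3, 4 and 3 passed as lower. With spike-in scaling the medians were -0.56, -0.56 and -0.58, and 1, 2 and 3 passed as lower. None of 4 red blood cell markers passed (median 0.47, and -0.0021 without scaling), at 2.39 to 2.76 against 1.73 to 2.93. The part of cell composition or of fibre type in the fold changes of the mitochondrial ribosomal protein genes was not tested.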

How the data were processed

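Quadriceps RNA of 3 exercise and 3 sedentary AR97Q mice was labelled with Cy3 and hybridised, 1 mouse an array, to Agilent SurePrint G3 mouse arrays. The authors deposited 1 scanner file an array from Feature Extraction 12.1.0.3, with the processed signal of each spot, an intensity on a linear scale after background subtraction, and flags for outliers, saturation and signal above background. They also deposited a table of intensity values, in which each array is its processed signal times 1 factor (1.33 to 1.88); how it was made is not given in the sources used here. The methods name iDEP and no scaling between arrays.

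Control spots (3671 of 62976) and outlier spots were left out, log2 of the processed signal was averaged over the spots of a probe, and the 75th percentile of each array was subtracted. A probe was kept where at least 3 arrays read it well above background (32726 of 56605). Probes were named through the RefSeq accession they carry (34566 matched; GRCm38.p6, used for names and promoter windows only), and 1 probe stood for a gene, the one with the highest mean. Exercise was compared with sedentary in limma 3.58.1 (R 4.3.3; lmFit and eBayes, two-sided) with Benjamini-Hochberg adjustment over 25005 genes and transcripts. The code was tested on simulated data whose planted changes were larger than that of any member, with no shift in signal between arrays. Changes of the members' size were not covered. The number of arrays limits the precision.

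Large and small subunit were counted apart, with medians beside those of everything tested, and no set test. The genes named are Mrpl42 and Mrpl33, the 7 Mrpl and 5 Mrps genes with the largest fold changes among those that passed without overlap, the 3 lowest of each, Mrps18a, Mrps30 and Mrps36, and the extremes of each list, save where the text says otherwise. The members and lists were chosen with earlier results of these data known. Alternatives were other scalings, normexp background correction, other filters and probe choices, the deposited table, each array left out, blocks for replicate number and strip, array weights, and eBayes with trend and robust. A further alternative was the unpaired t-test of 2 groups, which the paper names for its animal data in general, with iDEP for the arrays.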

Additional observations from a re-analysis of the deposited data

How the results depend on the processing

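The sign of the members' median depended on the scaling between arrays, and the number that passed depended on the scaling and on each array but Sedentary 1. Higher at adjusted p under 0.05 were 7 Mrpl and 4 Mrps genes with quantile normalization (medians 0.20 and 0.15), 10 Mrps genes with the array median subtracted (10.7% of everything tested; medians 0.47 and 0.45 for Mrpl and Mrps), and 6 and 4 in the deposited table (0.22 and 0.20). Without scaling, 1 Mrpl gene was higher, 1 was lower and 0 Mrps genes were higher (medians -0.092 and -0.11), and Mrpl33 (-0.17), Mrps30 (-0.11), Ndufa1 (-0.17) and Tufm (-0.032) reversed. With quantile normalization Mrpl33 (-0.027) and Ndufa1 (-0.10) reversed. Scaling on the 7 detected E1A spike-in probes, which are control spots and were added after the data were seen in place of the planned non-control spike-ins that could not be used, gave 0 and 0 (medians -0.16 and -0.18; Mrpl33 -0.24, Mrps30 -0.18, Ndufa1 -0.24, Mars2 -0.038, Tufm -0.10), with 1 Mrpl and 0 Mrps genes at an unadjusted p under 0.05. Normexp gave medians of 0.30 and 0.28. The unpaired t-test, which the paper names for its animal data in general and not for the arrays, gave 9 and 3 with Benjamini-Hochberg (1.75% of everything tested). Leaving out each array gave 0 to 28 Mrpl and 0 to 18 Mrps genes, the highest without Sedentary 1 and 0 without any one of the others; medians ran from 0.34 to 0.41 and from 0.32 to 0.40, and 33 to 41 and 20 to 24 genes had an unadjusted p under 0.05 in limma. Without those other arrays, 0 of all genes tested passed as higher. The strip as a block gave 0 and 0 in limma (29 and 15 at an unadjusted p under 0.05, beside 19.3%), where 0 of everything tested passed as higher and 3 as lower. Replicate numbers were not treated as pairs, since same-numbered arrays had correlations of 0.015, 0.085 and 0.036 and Exercise 1 correlated best with Sedentary 3. The replicate block gave 0 and 0 (40 and 23 unadjusted, beside 34.36% of everything tested), and 0 of everything tested passed there in either direction. The cause of these changes was not tested. The remaining filters, probe choices and fits kept both counts within 1.5 times and both medians within the spread of the arrays.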
